A study of Marchantia polymorpha with 6 samples.

Results

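In thalli of the liverwort Marchantia polymorpha, 120 of 19287 gene models stood at least 8 times higher in the mutant Mpbes1 than in the wild type and reached at least 5 CPM in the mutant. Most but not all of them had low wild-type levels, since 73 had a mean below 1 CPM in the wild type and 5 had 10 CPM or more. The 120 genes were chosen by measured values. Each had more than 3 reads over the wild-type libraries, a mean level in Mpbes1 of at least 5 CPM and at least 8 times the wild-type mean, and its lowest Mpbes1 value above its highest wild-type value. The difference between the genotypes is therefore a condition of the choice and is given here as a description. CPM is the read count of a gene scaled to the total count of its library.

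Messenger RNA came from thalli with apical notches of Tak-1, the male wild-type accession, and of Mpbes1, a CRISPR mutant, with 3 plants per genotype. All plants were 30 days old, untreated and grown on agar medium in cycles of 16 h light (22 °C) and 8 h dark (20 °C). The labels call all plants cv. Tak-1. The sources used here give neither the allele nor the number of independent mutant lines, so an effect of the mutation and of the line cannot be told apart. Library totals were 11650752 to 13609401 counts in Tak-1 and 11597664 to 17741253 in Mpbes1.

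BES1 is a transcription factor of the BES1/BZR1 family. In Arabidopsis, the members of this family are held inactive by phosphorylation through the kinase BIN2, act at the end of the brassinosteroid pathway, and both activate and repress genes. The files do not pair the gene identifiers with names, and 0 of the 19287 identifiers occur in the reference table, which belongs to another assembly. Position, exon structure and level take the place of names below, 2 identifiers are printed, and no function is given for any gene. The gene for BES1 and marker genes of thallus cell types were not analysed here for the same reason. Positions follow the deposited table and start at 1. The thallus was sampled whole, so more cells that express a gene and more RNA per cell cannot be told apart.

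The 120 genes together took 0.0326%, 0.0320% and 0.0336% of the counts in the Tak-1 libraries. In the Mpbes1 libraries they took 1.12%, 0.927% and 1.27%. The mean shares were 0.0327% ± 0.0008 for Tak-1 against 1.11% ± 0.17 for Mpbes1 (SD, n = 3). The gap between the genotypes follows from the choice, so nothing is read from its size against the spread within a genotype. The 10 genes with the highest Mpbes1 level held 36.3% ± 0.8 of the Mpbes1 reads of the whole group (SD, n = 3). The remainder was spread over many genes. Without those 10 the shares were 0.0216% in Tak-1 and 0.705% in Mpbes1. The median gene stood at 0.698, 0.739 and 0.772 CPM in the Tak-1 libraries and at 38.2, 31.1 and 43.1 CPM in the Mpbes1 libraries.

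**Figure D1:**
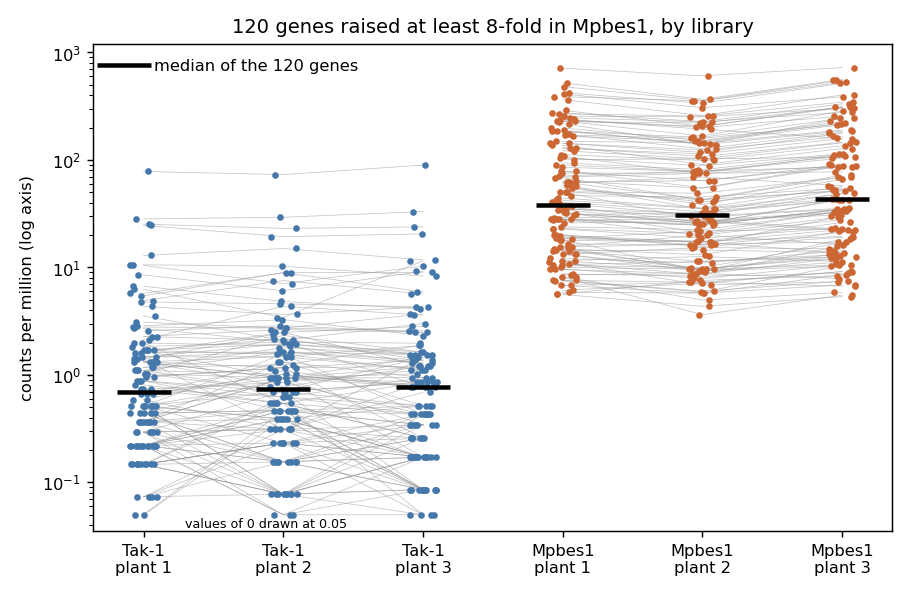
CPM of each of the 120 genes (points) in each of the 6 libraries on a log axis, with grey lines joining the values of a gene within a genotype and black bars at the median. The medians lie between 0.698 and 0.772 CPM in Tak-1 and between 31.1 and 43.1 CPM in Mpbes1, with the lowest of the Mpbes1 medians in plant 2.

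Most of the genes were weak in the wild type, where the choice required more than 3 reads of each. Of the 120, 73 had a mean below 1 CPM in Tak-1, 34 had 1 to 5 CPM and 13 had at least 5 CPM. In 112 genes every Tak-1 library held at least 1 read, and 32 genes rested on 4 to 10 reads over the 3 libraries. In Mpbes1, 15 genes lay at 5 to 10 CPM, 70 at 10 to 100 CPM and 35 at 100 CPM or more. Ranked among all 19287 models, the median gene went from place 12190.5 in Tak-1 to place 5652.5 in Mpbes1. In Tak-1 none of the 120 was among the 1000 most abundant models, and in Mpbes1 20 were.

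The ratio of the mean levels, Mpbes1 over Tak-1, ran from 8.20 to 1706 with a median of 42.3. It was below 16 in 27 genes, 16 to 32 in 21, 32 to 100 in 32 and at least 100 in 40, of which 5 reached 1000. Across the 120 genes the Tak-1 and Mpbes1 levels had a Spearman correlation of 0.40. All 120 genes passed the filter on low counts and all 120 were called higher in Mpbes1 by edgeR's quasi-likelihood test at an adjusted p under 0.05, beside 19.3% of the 12313 genes tested, and all 120 at least 2-fold, beside 4.55%. Because the same contrast chose the genes, nothing is read from these counts. Their median log2 fold change was 5.33, and that of all genes tested was 0.01.

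**Figure D2:**
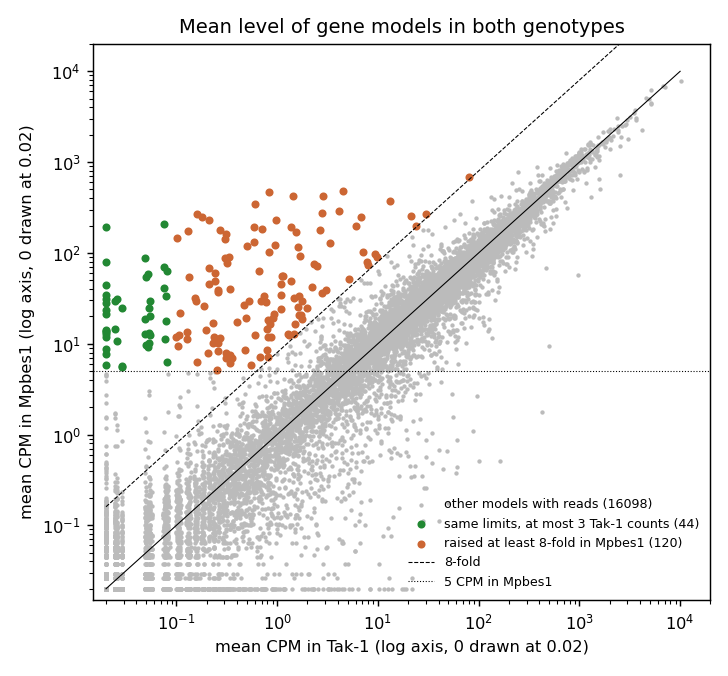
Mean CPM of gene models in Tak-1 (x axis) and Mpbes1 (y axis), both on log axes, with the 120 genes in orange and 44 genes that met the same limits with at most 3 Tak-1 reads in green. The 120 genes fill the area above the 8-fold line and above 5 CPM in Mpbes1, from 0.0980 to 80.3 CPM in Tak-1.

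Mapoly0037s0038.v3.1 had the highest level of the group in both genotypes. It lies on the plus strand of scaffold_37 from 507788 to 511034 and has 4 exon blocks, which are exons of all isoforms merged where they overlap. Its level was 78.2, 73.1 and 89.6 CPM in the Tak-1 libraries and 715, 607 and 724 CPM in the Mpbes1 libraries. The libraries of a genotype lay close together, and the ratio of 8.49 was the second lowest of the group. Its log2 fold change was 3.04 ± 0.11 (SE), and it moved from place 2861 to place 195 among all models.

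Mapoly0312s0001.v3.1 had the highest ratio. It lies on the plus strand of scaffold_312, a sequence with 2 gene models, from 14262 to 15687, and has 3 exon blocks. It had 0, 5 and 1 reads in the Tak-1 libraries and 3360, 2601 and 5578 reads in the Mpbes1 libraries, which is 290, 206 and 314 CPM. The ratio of the means was 1706, and the reads pooled per genotype gave 1746 with an exact 95% counting interval of 802 to 4758. The wild-type side of this ratio rests on 6 reads, so its size is known only within that interval.

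Other genes with high mutant levels started from different wild-type levels. The gene on scaffold_112 from 330734 to 331596, with 2 exon blocks and 710 bases of exon, stood at 4.78, 4.59 and 4.29 CPM in Tak-1 compared with 522, 367 and 560 CPM in Mpbes1. Per base of exon it was the most abundant of the 120 in Mpbes1, at 1285 TPM, against 12.3 TPM in Tak-1 (TPM is the count per exon length scaled like CPM). The gene on scaffold_28 from 143626 to 144975 went from 12.9, 15.01 and 11.8 CPM to 411, 307 and 387 CPM. That every Mpbes1 value lay above every Tak-1 value was required by the choice. In both genes Mpbes1 plant 2 was the lowest of the mutant plants.

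Further genes among the most abundant were built of 1 to 4 exon blocks. The gene on scaffold_119 from 265411 to 266962 had 1.03, 0.700 and 0.0858 CPM in Tak-1 plants 1 to 3, against 365, 259 and 403 CPM in Mpbes1. The gene on scaffold_3 from 398481 to 400873 had 4.34, 3.66 and 4.29 CPM against 269, 256 and 345 CPM. The gene on scaffold_53 from 938592 to 940741, a gene of 1 exon block, had 3.09, 2.72 and 2.57 CPM against 273, 228 and 333 CPM. Their ratios were 566, 70.8 and 99.5, so genes with like mutant levels differed widely in their wild-type levels.

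The 5 genes with a ratio of at least 1000 had 4 to 8 reads each in Tak-1. The gene on scaffold_10 from 1256129 to 1258006 had 4 Tak-1 reads and reached 143, 118 and 178 CPM in Mpbes1. The gene on scaffold_22 from 453059 to 454004, with 528 bases of exon, had 5 Tak-1 reads and reached 185, 143 and 190 CPM. Their ratios were 1430 and 1320, with counting intervals of 558 to 5245 and 569 to 4095, so the order among the highest ratios is not settled. Over all 120 genes the lower end of the counting interval lay above 8 in 112.

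At the other end stood genes with a clear wild-type level. The gene on scaffold_51 from 908255 to 911433 had 28.3, 29.3 and 33.1 CPM in Tak-1 compared with 255, 252 and 302 CPM in Mpbes1. The gene on scaffold_147 from 47419 to 53874, with 9 exon blocks, had 24.6, 19.4 and 20.5 CPM against 227, 221 and 309 CPM. Such genes were few, since only 5 of the 120 had 10 CPM or more in Tak-1.

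The gene with the lowest ratio, 8.20, lies on scaffold_92 from 764530 to 766818. The closest gene left out by this limit, on scaffold_38 from 1456851 to 1460404, had a ratio of 7.94, and the next, on scaffold_56 from 1124666 to 1128675 and on scaffold_130 from 384572 to 386067, had 7.84 and 7.82. The third lowest ratio inside the limit, after Mapoly0037s0038.v3.1, was 8.65, on scaffold_54 from 759697 to 767003. The lowest Mpbes1 mean among the 120 was 5.10 CPM, on scaffold_4 from 1609211 to 1610892, followed by 5.75 CPM on scaffold_99 and 6.17 CPM on scaffold_81. The highest means left out by that limit were 4.82, 4.78 and 4.75 CPM, on scaffold_26, scaffold_9 and scaffold_37. The limit on wild-type reads fell within a larger body of raised genes: 5 of the 120 had 4 Tak-1 reads, 28 genes that met the other limits had 1 to 3 and 16 had 0. No gene was left out by overlap of the libraries alone.

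As a measurement in libraries that took no part in the choice, the same limits were applied to 2 libraries per genotype and the ratio was read from the remaining Tak-1 and Mpbes1 libraries. Over the 9 ways to do this, 109 to 122 genes were chosen, of which 104 to 113 were among the 120. In the libraries left out, 99.1% to 100% of them were higher in Mpbes1, where 52.0% to 59.2% of all genes tested were. The median ratio there was 28.4 to 41.7, with Tak-1 values below 3 reads raised to 3 reads. A ratio of at least 8 was found there for 87.3% to 95.7% of the chosen genes. With 1 library per genotype left out there is no test of these ratios.

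Within Mpbes1 most of the genes shared an order of the plants, which the choice did not use. Plant 2 had the lowest value in 97 of the 120 genes, plant 1 in 14 and plant 3 in 9. Plant 3 had the highest value in 86, plant 1 in 26 and plant 2 in 8. Relative to its own Mpbes1 mean, the median gene stood at 0.99, 0.85 and 1.14 in plants 1, 2 and 3. The order of the medians was the same whether column totals or TMM-adjusted library sizes were used, with 96 genes lowest in plant 2 under the latter. TMM is edgeR's scaling by trimmed means. Plant 2 was neither the shallowest nor the deepest library, with 12653134 counts, and plant 3 was the deepest, with 17741253. Depth as a cause of the order was not tested.

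Plant 2 was lowest in smaller shares of other groups of genes, apart from the genes with at most 3 Tak-1 reads. Plant 2 was lowest in 47.7% of the 440 other genes called higher at least 2-fold, in 37.3% of the 1820 called higher by less, in 34.3% of the 6356 genes with at least 5 CPM and no call, and in 35.4% of the 1917 called lower that kept 5 CPM, against 80.8% of the 120. Among 1153 other genes with at least 5 CPM and a coefficient of variation in Mpbes1 of 12 to 23% it was 36.9%. For the 120 the 25th and 75th percentiles of this coefficient were 12.7% and 22.1%, within a full range of 2.44% to 39.0%. In the 44 genes with at most 3 Tak-1 reads plant 2 was lowest in 86.4%, and their median in plant 2 was 0.77 of the mean. All 44 were called higher at least 2-fold, so they are also counted among the 440. Of these 44, plant 1 was highest in 21 and plant 3 in 22 (50%), where plant 3 was highest in 71.7% of the 120. Plant 3 was highest in 44.1% of the 440, 35.1% of the 1820, 35.8% of the 6356, 43.1% of the 1917 and 47.2% of the 1153 genes. Genes share libraries, so these shares describe 3 plants and were not tested, and what moved with plant 2 was not tested.

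**Figure D3:**
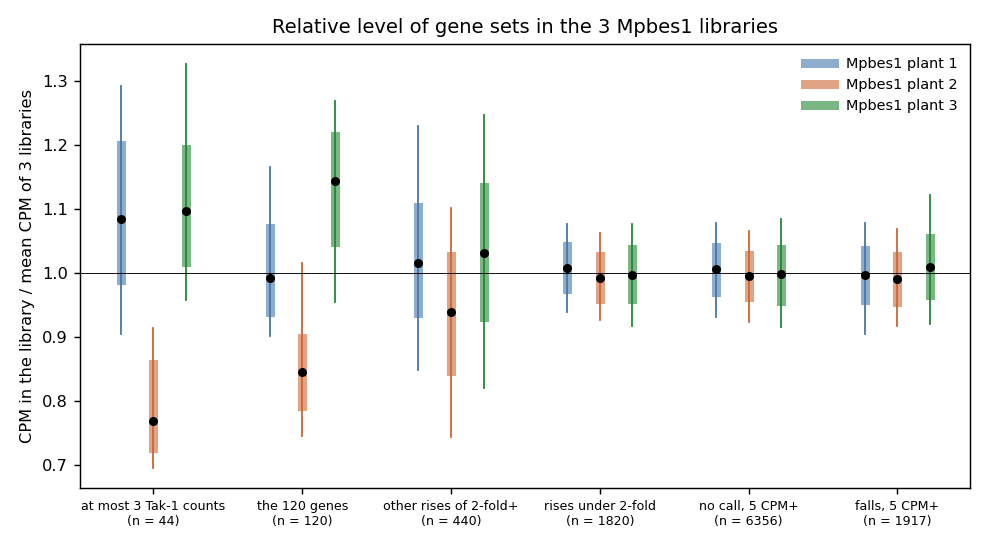
CPM in each Mpbes1 library divided by the mean of the 3 libraries, for 6 sets of genes. Dots are medians, thick bars run from the 25th to the 75th percentile and thin lines from the 10th to the 90th. The medians of plant 2 are 0.77 for genes with at most 3 Tak-1 reads, 0.85 for the 120 genes, 0.94 for the other rises of 2-fold or more and 0.99 to 1.00 for the remaining sets. The other rises of 2-fold or more include the genes with at most 3 Tak-1 reads.

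The share with plant 2 lowest varied with ratio and level. Plant 2 was lowest in 37 of the 40 genes with a ratio of at least 100, in 26 of the 32 from 32 to 100, in 14 of the 21 from 16 to 32 and in 20 of the 27 below 16. Their median levels in plant 2 were 0.80, 0.85, 0.88 and 0.87 of the mean. By level, plant 2 was lowest in 33 of the 35 genes with at least 100 CPM in Mpbes1 (94.3%) and in 28 of the 39 under 20 CPM (71.8%). Among the 93 genes with no other of the 120 within 3 models, plant 2 was lowest in 72. In the wild type the medians were 1.01, 1.02 and 0.95 of the Tak-1 mean, and plants 1, 2 and 3 were highest in 43, 48 and 29 genes. The highest Mpbes1 library was at least 2 times the lowest in 2 of the 120 genes. The median coefficient of variation over the Mpbes1 plants was 18.1%, and it was 5.70% over the 10480 genes tested with at least 5 CPM in Mpbes1.

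In 9 genes plant 3 and not plant 2 was the lowest. The gene on scaffold_92 named above had 240, 193 and 159 CPM in plants 1, 2 and 3. The gene on scaffold_152 from 78959 to 82431 had 60.6, 69.4 and 57.7 CPM, so plant 2 was its highest. The largest spread was on scaffold_99 from 255656 to 257822, with 8.11, 3.64 and 5.52 CPM in Mpbes1 and 0.367, 0.933 and 0.343 CPM in Tak-1. The genotypes did not overlap in this gene, which the choice required of every gene. The next largest spreads were on scaffold_140 from 141804 to 147115, with 16.6, 16.3 and 30.0 CPM in Mpbes1, and on scaffold_41 from 596614 to 597817, with 18.1, 9.25 and 11.2 CPM. Plant 2 was the lowest in all 3 of these genes, while the highest was plant 1 in the first and last and plant 3 in the other.

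The 120 genes lay on 84 scaffolds and were, by their medians, shorter and of fewer exon blocks than the genes tested. Their median exon length was 1404.5 bases, against 2394 bases over all genes tested, and they had a median of 3 exon blocks against 5. Of the 120, 29 (24.2%) had less than 1000 bases of exon, where 7.58% of the tested genes had. There were 57 (47.5%) with 1 or 2 exon blocks, against 28.9%, and 3 (2.5%) with more than 10, against 20.0%. Among the tested genes with at least 5 CPM in Mpbes1 the shares were 24.5% and 22.5%. Over all 19287 models, which include those without reads, 43.7% had 1 or 2 exon blocks and 13.6% more than 10, and the median was also 3 exon blocks. The share with 1 or 2 exon blocks was thus close to that of all models. The median exon length of all models was 1927 bases, and 18.8% had less than 1000. The 44 genes with at most 3 Tak-1 reads had a median exon length of 1052.5 bases, and 47.7% had less than 1000. Of these 44, 52.3% had 1 or 2 exon blocks and 0% more than 10. None of the 120 lay on the male sex chromosome sequences. These hold 31 (0.252%) of the tested genes, so nothing is read from the absence. A short gene gathers fewer reads at a given transcript number, so structure and level are not separated in these shares, which were not tested.

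Ratios above 100 occurred in every class of exon block number. The median ratio was 43.3 in the 19 genes with 1 exon block, 81.1 in the 38 with 2, 37.6 in the 36 with 3 or 4, 31.7 in the 24 with 5 to 10 and 54.5 in the 3 with more than 10. The ranges overlapped throughout, from 8.84 to 1381 with 2 exon blocks, from 8.65 to 286 with 5 to 10 and from 19.2 to 138 with more than 10. Across the 120 genes exon length and ratio had a Spearman correlation of -0.24.

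Some of the genes lay side by side. In 8 pairs the next gene model was also among the 120, which involved 16 genes (13.3%). Within 3 models 27 genes had another, in 12 groups of which 3 held 3 genes. Of the 44 genes that met the same limits with at most 3 Tak-1 reads, 12 (27.3%) lay next to another of the 44. Of the 8 pairs 5 were on the same strand and 3 were divergent, which means on opposite strands with the starts facing each other. Over all 18524 pairs of neighbouring models 51.2% shared a strand and 24.4% were divergent. In 3 of the 8 pairs (37.5%) both genes shared the strand and the exon block number and differed in exon length by at most 1.5 times, and 4.0% of all pairs did. With so few pairs the shares are descriptions.

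The pair with the highest level lies on scaffold_54, both genes on the minus strand with 4 exon blocks and exon lengths of 1233 and 1148 bases. The first, from 299086 to 300915, had 1.18, 1.24 and 1.89 CPM in Tak-1 compared with 422, 337 and 516 CPM in Mpbes1. The second, from 302334 to 303976, had 0.514, 1.56 and 0.429 CPM against 481, 357 and 552 CPM. Both reached nearly the same level in the mutant. In both, plant 2 was lowest and plant 3 highest, which is also the order of the medians over the 120 genes. The next model, from 307404 to 310957 on the plus strand, had 0 reads in Tak-1 and 28.4 ± 6.0 CPM in the mutant (SD, n = 3), and was left out for that reason.

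On scaffold_87 3 genes on the plus strand between 124219 and 133550 had 0.312 ± 0.055, 0.316 ± 0.205 and 0.594 ± 0.194 CPM in Tak-1. They had 160 ± 29.0, 77.9 ± 13.5 and 134 ± 22.7 CPM in Mpbes1 (SD, n = 3). Another model between them, on the minus strand from 131344 to 132193, had no read in any library, so the raised genes did not form an unbroken series. On scaffold_130 2 raised genes of 7 and 5 exon blocks, with 1.37 ± 0.27 and 1.61 ± 0.24 CPM in Tak-1 compared with 191 ± 52.3 and 115 ± 18.4 CPM in Mpbes1 (SD, n = 3), stood on either side of a gene on the other strand. That gene, from 98218 to 101551, had 18.4 CPM in Tak-1 compared with 24.6 CPM in Mpbes1, a ratio of 1.33.

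On scaffold_5 the genes from 3128561 to 3132055 and from 3136331 to 3140388 have 6 and 7 exon blocks. The first had 2.57, 2.88 and 2.49 CPM in Tak-1 compared with 167, 149 and 221 CPM in Mpbes1. The second had 3.53, 2.10 and 3.0 CPM against 388, 355 and 529 CPM. Neighbours with many exon blocks thus occurred beside those with few.

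On 2 scaffolds the limit on wild-type reads left out genes within a series. On scaffold_25 the genes from 675210 to 676484, from 681425 to 682599 and from 711904 to 713475 were among the 120. They had 8, 7 and 8 Tak-1 reads and 228 ± 59.4, 248 ± 53.2 and 68.8 ± 17.1 CPM in Mpbes1 (SD, n = 3). The gene between the first and the second, from 678255 to 679621, had 3 Tak-1 reads and 207 ± 39.2 CPM in Mpbes1, so it was left out by 1 read although its level resembled theirs. The fitted log2 fold change of this gene was 11.16 ± 0.31 (SE), with an adjusted p of 3.9e-08 by edgeR, and depends on the prior count. On scaffold_35 3 genes with 2 exon blocks and 635 to 815 bases of exon were among the 120, with 9, 42 and 10 Tak-1 reads and 60.2 ± 15.5, 45.4 ± 11.4 and 181 ± 40.0 CPM in Mpbes1 (SD, n = 3). Between the first and the last of them lay 4 models that met the same limits with at most 3 Tak-1 reads. How reads with several alignments were counted is unknown from the sources used here, so reads of such similar neighbours may have been shared or discarded.

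**Figure D4:**
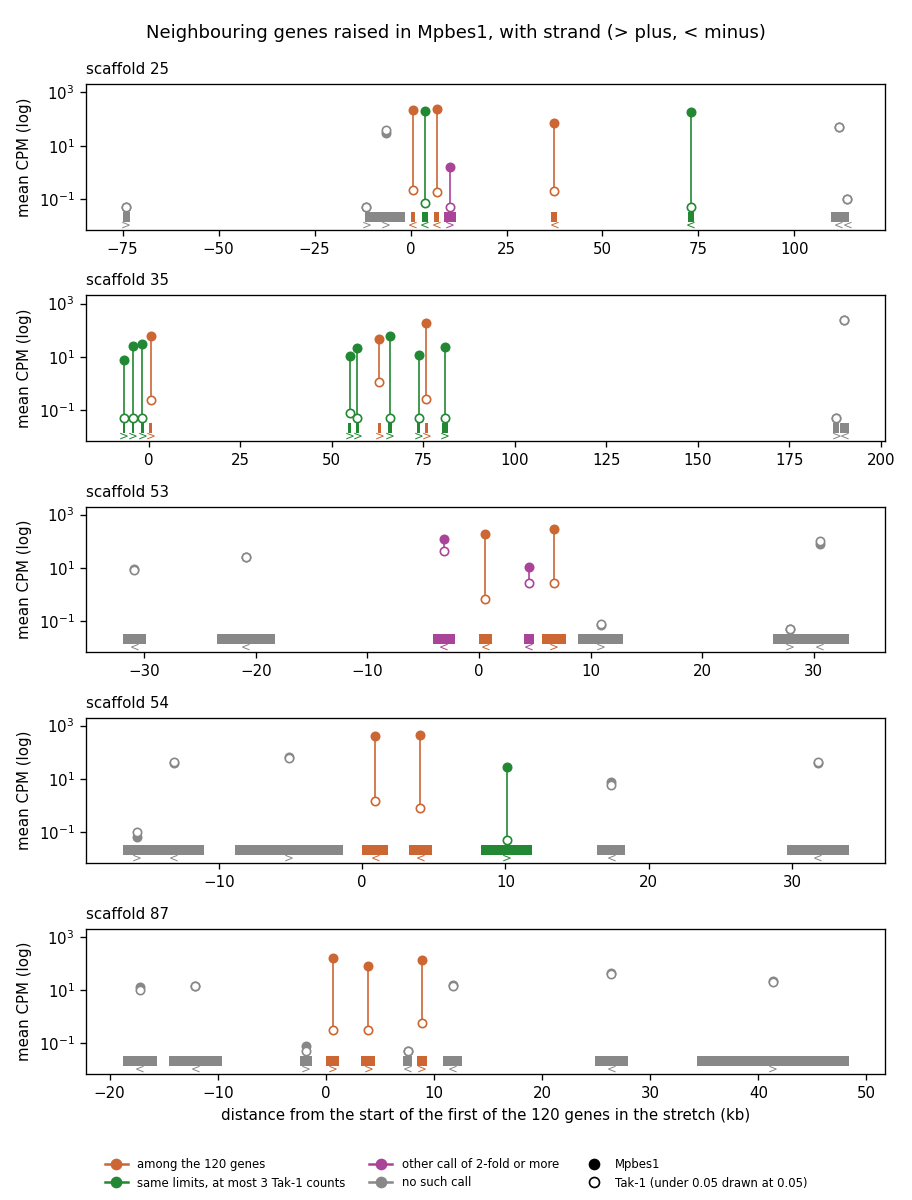
Gene models on 5 scaffolds as bars along the distance in kb from the first of the 120 genes in the group, with strand marks, and the mean CPM in Tak-1 (open circles) and Mpbes1 (filled circles) on a log axis. Raised genes stand next to models with little change on scaffold_54 and scaffold_87. On scaffold_53 the tested models directly beside the genes of the group were themselves called higher at least 2-fold. On scaffold_35 the 3 genes of the group lie among 8 models that met the same limits with at most 3 Tak-1 reads.

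Among the divergent pairs the highest levels were on scaffold_46. There the genes from 571709 to 572680 and from 573144 to 574374, with 463 bases between them, had 2.24 ± 0.42 and 0.902 ± 0.195 CPM in Tak-1. They had 41.8 ± 6.45 and 19.2 ± 2.89 CPM in Mpbes1 (SD, n = 3), with ratios of 18.7 and 21.3. On scaffold_36 a pair with 369 bases between the genes, from 400353 to 402973, had ratios of 10.8 and 20.8. The third pair, on scaffold_16 from 750288 to 753608, had ratios of 21.6 and 49.8, but its genes overlap, and since the strand setting of the counting is unknown their reads may be mixed. The other same-strand pairs had levels in the range of the divergent ones or below it. On scaffold_119 the genes from 75349 to 76178 and from 77516 to 78430 had 33.6 and 29.2 CPM in Mpbes1, with ratios of 45.1 and 185. On scaffold_85 the genes from 867465 to 868682 and from 873800 to 874789 had 7.01 and 12.6 CPM, with ratios of 22.7 and 119.96. Overlap with a model on the opposite strand concerned 3 of the 120 genes.

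Among the genes next to the 120 the share called higher lay above that of all genes tested. These neighbours are not among the 120, so their own change was not used in the choice except that a gene meeting every limit cannot be one of them. Of 209 models next to one of the 120, 148 were tested, and edgeR called 55 (37.2%) higher, against 19.3% of all genes tested. At least 2-fold it called 28 (18.9%), against 4.55%, of which 16 met the limits of the group apart from having at most 3 Tak-1 reads. Called lower at least 2-fold were 5 (3.38%), against 7.16% of all genes tested. At the second model away the counts were 49 (33.1%) and 17 (11.5%) of 148, and at the third 30 (20.4%) and 11 (7.48%) of 147. The median log2 fold change was 0.15, 0.08 and -0.01 at these distances and 0.01 over all genes tested. A model near several of the 120 can count at several distances, so the sets at these distances share genes.

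**Figure D5:**
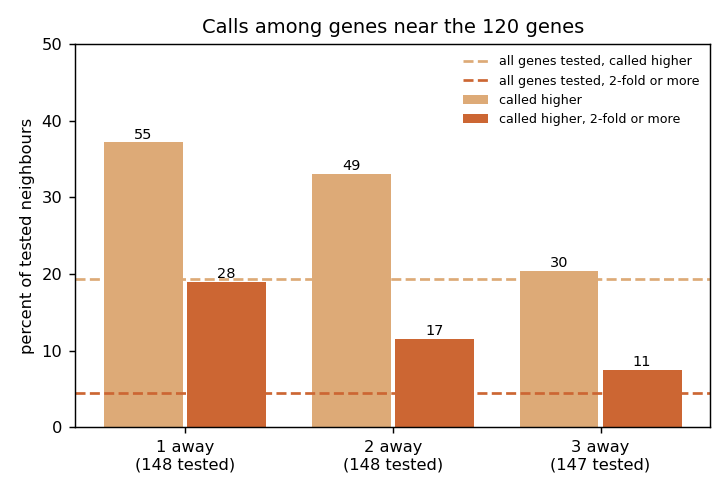
Percent of tested genes called higher in Mpbes1 by edgeR (light bars) and called higher at least 2-fold (dark bars) 1, 2 and 3 models away from the 120 genes, with the number of genes on each bar and dashed lines at the shares over all genes tested, 19.3% and 4.55%. The share called higher is 37.2% beside the 120 genes and 20.4% at 3 models away. A model near several of the 120 can count at several distances.

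Most of the neighbours called higher at least 2-fold, 24 of 28, were on the strand of the gene beside them. Of 13 tested neighbours with the same strand, the same number of exon blocks and a similar exon length, 12 were called higher and 11 at least 2-fold. Of the 135 unlike neighbours 43 (31.9%) and 17 (12.6%) were. Several of the 13 like neighbours lie close together on scaffold_25 and scaffold_35, so the 13 are not separate cases. The 24 were among 87 tested neighbours on that strand (27.6%), and the other 4 among 61 on the opposite strand (6.56%). Called higher at any size were 38 (43.7%) on the same strand and 17 (27.9%) on the opposite strand. With only neighbours of more than 3 Tak-1 reads counted, 37 of 130 (28.5%) were called higher and 10 (7.69%) at least 2-fold. Without scaffold_25 and scaffold_35 it was 45 of 136 (33.1%) and 19 (14.0%). These shares were not tested against the background.

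Examples of such neighbours with a wild-type level include the gene on scaffold_53 from 928826 to 930779, which rose from 42.4 ± 3.29 to 119 ± 18.7 CPM (SD, n = 3; log2 fold change 1.45 ± 0.11, SE; edgeR adjusted p = 7.4e-06). It lies beside a gene of the 120 with 1 exon block, from 932942 to 934063, which had 0.735, 0.544 and 0.858 CPM in Tak-1 compared with 171, 159 and 217 CPM in Mpbes1. On scaffold_51 the gene from 182719 to 187035 rose from 25.5 ± 3.96 to 83.9 ± 7.22 CPM (SD, n = 3; edgeR adjusted p = 1.7e-06). In both cases the neighbour kept a far higher level in Tak-1 than the gene of the 120 beside it.

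By the same limits with the genotypes exchanged, 103 genes were high in Tak-1 and at least 8 times lower in Mpbes1 with more than 3 reads there. Their share of the counts was 0.454% ± 0.046 for Tak-1 against 0.0198% ± 0.0030 for Mpbes1 (SD, n = 3). Their median level was 16.1 CPM in the genotype where they were high, against 37.8 CPM for the 120 genes. Their median exon length was 1637 bases, 43.7% of them had 1 or 2 exon blocks and 11.7% lay next to another of their kind, against 1404.5 bases, 47.5% and 13.3% for the 120 genes. Plant 2 was the lowest Mpbes1 library in 34.95% of them. These differences between the lists were not tested.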

How the data were processed

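Raw read counts per gene model, whole numbers without normalization, were deposited by the authors for 6 thallus libraries in a single table. Exon positions and the exon length of each model stand beside them, per the file headers. According to the submitters' processing notes the reads went through STAR 2.5.2b, featureCounts 1.5.1 and edgeR, and the kit kept the strand per the labels' protocols. The sources used here state neither the strand setting of the counting, nor the handling of multiply aligned reads, nor the build. CPM was computed from these deposited counts over column totals, and TPM from counts per exon length.

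Genotypes were compared over all genes with edgeR 4.0.16 in R 4.3.3 (quasi-likelihood test, robust fit, TMM, filterByExpr, genotype as the only term), with Benjamini-Hochberg adjustment over 12313 genes and calls at an adjusted p under 0.05. Standard errors were derived from the F statistic. The fit was tested on simulated data. The biological coefficient of variation was 8.89%. Libraries of a genotype differed by more than counting noise (chi-square per gene 3.02 to 10.9), so none was treated as a duplicate. The series' design text calls the plants independent replicates. Counting intervals are exact (conditional binomial, SciPy 1.17.1), cover counting error only, and say nothing of the spread between plants. A count of 0 allows 3 reads per library.

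The genes and lists were chosen with earlier results of these data known. Genes described singly were those highest by Mpbes1 level, by ratio and by Tak-1 level, those nearest to each limit, those in groups of neighbours and those with the largest spread. The genes on scaffold_152, scaffold_965, scaffold_1171 and scaffold_2488, the pairs on scaffold_5, scaffold_36, scaffold_46, scaffold_85, scaffold_119 and scaffold_130, and every gene outside the 120 except those nearest to a limit were picked after their values were seen. Also added after seeing the data were the TMM scaling of the order of the plants, the counts without scaffold_25 and scaffold_35, the counting bound on the ratio and the shares without the 10 highest genes. DESeq2 1.42.0 was an alternative test. Planned marker lists need gene names and were not run.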

Additional observations from a re-analysis of the deposited data

How the results depend on the processing

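Of 94 alternative values for 10 results, 81 stayed within 1.5 times of the reported count or within the spread between libraries. These values include the calls and fold changes of the 120 genes. The same contrast chose those genes, so nothing is read from their staying called higher. With 1 library left out, edgeR called 3974 to 4808 genes in place of 4977, all 120 genes stayed called higher, 48 to 52 neighbours in place of 55 were called higher, the median log2 fold change was 5.22 to 5.42, and the limits chose 111 to 127 genes with 1.03% to 1.22% of the Mpbes1 counts and 0.0305% to 0.0349% of the Tak-1 counts. The median ratio in libraries left out was 28.4 to 41.7 around a median of 36.6, and lowest where Mpbes1 plant 2 was left out. A 4-fold limit chose 181 genes and a 16-fold limit 93, because the limit itself sets the number. Counting 2 models on each side gave 97 neighbours called higher of 283 tested, and 25 of the 120 genes lay within 20 kb of another. Without the 10 highest genes the shares were 0.705% and 0.0216%. DESeq2 called 4481 genes and 47 of the neighbours. Without a filter 57 of 186 tested neighbours were called higher. Whether the replicate numbers pair the plants was not settled (correlations of deviations 0.17, -0.03 and 0.14, with 4 of the 6 libraries closest to their own number). With the replicate block 5246 genes, all 120 genes and 53 neighbours were called, and the median log2 fold change was 5.32. Genes with few Tak-1 reads have ratios known only within wide counting intervals.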

Other observations

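Of the 120 genes, 6 lay on scaffolds with at most 5 gene models, 5.0% against 2.22% of the genes tested and 3.60% of all models. The share was 6.82% in the 44 genes with at most 3 Tak-1 reads and 9.71% in the 103 genes lower in Mpbes1. Besides the gene with the highest ratio, the 6 included the gene on scaffold_965 from 5562 to 6349. It had 0.367, 0.156 and 0.257 CPM in Tak-1 compared with 30.8, 32.4 and 53.1 CPM in Mpbes1. The gene on scaffold_1171 from 1591 to 3013 had 1.62, 2.49 and 2.83 CPM in Tak-1 compared with 79.2, 55.1 and 90.6 CPM in Mpbes1. The only other model on that scaffold, from 4351 to 5639, had 2 reads in Tak-1 and 87.2 ± 20.7 CPM in the mutant (SD, n = 3), so both models of this short sequence were raised. The gene on scaffold_2488 from 1736 to 3234 had 1.98, 0.544 and 0.257 CPM in Tak-1 compared with 18.6, 21.8 and 22.9 CPM in Mpbes1, with most of its wild-type reads in plant 1. Where these sequences lie in the genome was not analysed here.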
